A study of Mus musculus with 23 samples.

Results

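The collagen genes of the mouse sciatic nerve (SN) are described here. They were taken by name, as the protein-coding genes whose symbols hold Col, a type number, the letter a and a chain number. The rule gave 44 genes among the 43068 genes listed (22880 in the knockout tables), and no measured value entered it. They fall by protein structure into 11 fibrillar genes, 6 basement membrane (type IV) genes, 6 type VI (beaded filament) genes and 9 FACITs. FACITs are collagens that sit on fibrils and whose own triple helix is interrupted. A further 3 short-chain, 4 transmembrane and 2 multiplexin genes, the anchoring fibril gene Col7a1, and Col26a1 and Col28a1, placed in no class, make up the rest. Long RNA of whole SN was sequenced in 23 libraries of 7 groups. The nerve crush experiment used wild-type C57BL/6J males aged 2 months and compared 4 crushed nerves at 3 days post crush (dpc), as a 7 mm piece distal to the crush, with 4 contralateral nerves of operated mice and with 3 uncrushed surgery controls. By the methods both nerves of an operated mouse were taken, so crushed and contralateral nerves come from the same mice, but the labels do not say which belong together and the fits treat them as separate. The knockout experiment used inducible knockouts (iKO) of the miRNA processing genes Dgcr8 and Dicer1. Mice homozygous for a floxed allele (Dgcr8 flox/flox or Dicer1 flox/flox) carried 1 copy of a CreERT2 transgene (3 Dgcr8 iKO and 3 Dicer iKO) or none (3 controls for each line). Both arms were injected with tamoxifen on 5 days at 8 to 10 weeks of age, and nerves were taken 3 months post tamoxifen (mpT) from mice of either sex. The tamoxifen-inducible Cre is meant to act in adult myelinating Schwann cells (SCs) and to spare the other cells of the nerve. Not every iKO mouse showed a morphological change, and the study kept to affected mice, so the iKO nerves are a selected set.

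Collagens are the main structural proteins of the nerve's extracellular matrix. Fibroblasts of the endoneurium and epineurium lay down fibrils of types I, III and V, whereas SCs surround each axon unit with a basal lamina built on a type IV network and also secrete type V collagen. Type VI collagen forms beaded filaments beside basal laminae, the multiplexins XV and XVIII sit in the basal lamina zone, and FACITs link fibrils to their surroundings. Each collagen molecule is a trimer of chains, and many types need chains from more than a single gene. Whole-nerve RNA mixes all cell types, so fewer cells of a type and less RNA per cell cannot be told apart.

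Gene counts summed to between 5594838 and 12805921 per library. SC markers were present in every library, with the summed level of 9 genes at 26579 to 32728 CPM in contralateral and 2248 to 3021 CPM in crushed nerves (CPM, counts scaled to library size after TMM normalization). In the iKO experiment the same sum was 24100.3 to 38814 CPM in Dicer controls, 17959 to 23006 in Dicer iKO, 32427 to 37442 in Dgcr8 controls and 11385 to 21612 in Dgcr8 iKO. The summed level of 10 macrophage markers was higher in all 3 conditions, with 102 to 187 CPM in contralateral and 715 to 1712 in crushed nerves. It was 335 to 1116 CPM in Dicer control, 4118 to 7589.5 in Dicer iKO, 315 to 375 in Dgcr8 control and 2836 to 6839 in Dgcr8 iKO nerves. Of the SC markers 7 of 9 were called lower after crush (against contralateral), 4 of 9 in Dgcr8 and 0 of 9 in Dicer nerves. Cell division markers rose, with 6 of 6 called after crush, 6 of 6 in Dgcr8 and 5 of 5 tested in Dicer nerves. Of all genes, 14.6% were called higher and 13.6% lower after crush. The shares were 13.4% and 6.99% in Dgcr8 and 7.37% and 1.64% in Dicer nerves. No marker of these lists was at 0 in every library of a group. The 10 fibroblast markers summed to 854 to 978 CPM in contralateral, 305 to 428 in crushed, 2014 to 2757 in Dicer control, 2076 to 2379 in Dicer iKO, 1968 to 2108 in Dgcr8 control and 1401 to 1662 in Dgcr8 iKO nerves. Against contralateral nerves the fibroblast sum was lower after crush, with 1 of 10 genes called higher and 3 lower, beside the shares given above. The log2 fold changes of the list centred on -0.07 (median), beside -0.06 over all genes. Against uncrushed nerves, at 890 to 982 CPM, 1 was called higher and 3 lower (15.3% and 21.1% of all genes). The median there was -0.40, beside -0.03 over all genes. In either direction 8 of 10 passed the adjusted p there, and 5 of 10 against contralateral nerves. In the Dgcr8 line 2 of the 10 were called higher and 1 lower (median -0.10). In the Dicer line 0 were called in either direction (median -0.25). The part of these cell-type shifts in the collagen results was not tested. Counts of the targeted genes changed little and did not pass the test. Dicer1 stood at 87.4 to 90.5 CPM in controls and 81.3 to 82.1 in Dicer iKO, so every iKO library lay slightly below every control (log2 fold change -0.11 ± 0.08, adjusted p = 0.36). Dgcr8 stood at 35.4 to 41.8 and 39.4 to 53.98 CPM in the Dgcr8 line, with overlapping groups (0.22 ± 0.15, adjusted p = 0.23). Gene-wide counts from whole nerve include other cells and exons outside the floxed part. Among the Dicer controls, replicate 3 had the lowest Col1a1, Col3a1, Col6a1 and Col15a1, so for collagens called in the Dicer line with or without this library, a change that moved by 0.2 or more on the log2 scale or lost or gained its call is also given without it. Replicate 3 was not the only unusual Dicer control. In replicates 1 to 3 the macrophage sum was 1116, 650 and 335 CPM and the perineurial sum 1732, 1315 and 811. In both sums replicate 3 lay within the range of the Dgcr8 controls (315 to 375 and 620 to 1000.5) and replicates 1 and 2 above it. The SC sum was 24100.3, 30507 and 38814 CPM, with replicates 1 and 2 below that range and replicate 3 above it.

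The type IV genes lie head to head in pairs, and the promoters of Col4a1 and Col4a2 are printed because these abundant partners share their start region and fell side by side after crush. Col4a1 (minus strand, chr8:11198423-11312826, GRCm38) and Col4a2 (plus strand, chr8:11312805-11449287) start 21 bases apart and overlap at their first exons. Col4a3 and Col4a4 on chromosome 1 start 72 bases apart, and Col4a5 and Col4a6 on chromosome X start 1309 bases apart. Both start regions of Col18a1 are printed because the estimated share of its counts on each start differed between groups. Each window runs from 250 bases before to 50 bases after a RefSeq start (GRCm38.p6), 5′ to 3′ on the gene's own strand, and capitals mark 3 promoter motifs on either strand, namely the CCAAT box, the GC box and the TATA box.
Col4a1 (chr8:11312777-11313076, minus strand): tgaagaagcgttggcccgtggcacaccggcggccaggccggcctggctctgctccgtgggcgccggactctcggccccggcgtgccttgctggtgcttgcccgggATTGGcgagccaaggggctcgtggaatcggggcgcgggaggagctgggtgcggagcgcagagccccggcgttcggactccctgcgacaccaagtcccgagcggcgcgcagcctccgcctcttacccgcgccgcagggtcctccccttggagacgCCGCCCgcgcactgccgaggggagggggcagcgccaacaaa
Col4a2 (chr8:11312555-11312854, plus strand): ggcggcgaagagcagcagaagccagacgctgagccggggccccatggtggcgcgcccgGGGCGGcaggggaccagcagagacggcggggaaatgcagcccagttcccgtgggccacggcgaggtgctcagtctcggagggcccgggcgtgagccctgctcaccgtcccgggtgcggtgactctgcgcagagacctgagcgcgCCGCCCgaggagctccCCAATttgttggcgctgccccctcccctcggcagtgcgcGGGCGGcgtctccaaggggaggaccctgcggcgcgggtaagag
Col18a1 upstream start (chr10:77166481-77166780, minus strand): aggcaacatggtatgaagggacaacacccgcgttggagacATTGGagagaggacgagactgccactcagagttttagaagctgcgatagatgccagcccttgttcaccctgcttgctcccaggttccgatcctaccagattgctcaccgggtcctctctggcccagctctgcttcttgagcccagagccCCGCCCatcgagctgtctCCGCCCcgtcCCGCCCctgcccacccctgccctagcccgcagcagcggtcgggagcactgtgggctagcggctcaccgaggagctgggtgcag
Col18a1 internal start (chr10:77113656-77113955, minus strand): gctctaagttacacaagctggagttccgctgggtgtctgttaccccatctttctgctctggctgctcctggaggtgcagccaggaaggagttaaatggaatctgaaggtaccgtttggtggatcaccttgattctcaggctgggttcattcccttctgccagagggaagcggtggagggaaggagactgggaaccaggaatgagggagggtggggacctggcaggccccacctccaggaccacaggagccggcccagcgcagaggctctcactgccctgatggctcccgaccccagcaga
The Col4a1 and Col4a2 windows overlap by 78 bases, the same DNA printed once from each strand. Over the 38 windows found for 35 of the 44 genes, 23 held the GC box GGGCGG on either strand (60.5%, against 35.7% of all 32851 windows of the same length). The CCAAT box was found in 13 (34.2%, against 37.4%) and the TATA box TATAAA in 5 (13.2%, against 13.6%). The upstream Col18a1 window holds 3 GC boxes and 1 CCAAT box, and the internal window holds none of the 3 motifs.

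In the uninjured nerve a few chains carried most collagen mRNA. Per length, the uncrushed nerve was led by Col3a1 at 338 ± 34.02 FPKM (SD, n = 3), a unit scaled to transcript length and depth, with Col1a2 at 318 ± 24.8 and Col1a1 at 275 ± 15.3, which encode the type III chain and both type I chains. Col3a1 and Col1a2 did not differ beyond their spread. The basal lamina genes Col4a2, Col15a1 and Col4a1 followed at 155 ± 3.48, 128 ± 8.68 and 127 ± 4.74 FPKM, and Col15a1 and Col4a1 overlapped. The top 5 genes held 67.9% of the summed collagen FPKM, and 29 of the 44 genes reached 1 FPKM. The same 3 genes of types I and III led in all 7 groups. After crush, Col18a1 and Col5a2 came next at 95.7 ± 4.61 and 90.9 ± 4.45 FPKM, with Col4a2 at 79.9 ± 3.45 and Col4a1 at 67.2 ± 1.71 FPKM (SD, n = 4). Col13a1 and Col19a1 were tested in no comparison and reached at most 0.876 and 1.36 CPM in any library.

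As a whole, collagens took a smaller share of the counts after crush and a larger share in both iKO lines. The share was 0.858 ± 0.0256% in uncrushed (SD, n = 3), 0.912 ± 0.0544% in contralateral (n = 4) and 0.705 ± 0.0305% in crushed nerves (n = 4), and the crushed libraries lay below all others of that experiment. It was 1.41, 1.23 and 0.818% in the Dicer controls and 2.49, 2.81 and 2.78% in the Dicer iKO. Dgcr8 controls stood at 1.14, 1.34 and 1.02% and Dgcr8 iKO at 2.55, 2.54 and 2.91%, so the groups did not overlap in either line. Within a library, the summed TPM of fibrillar genes over that of type IV genes was higher in all 3 conditions. The ratio went from 3.27 ± 0.623 in contralateral and 3.75 ± 0.273 in uncrushed to 5.56 ± 0.198 in crushed nerves. In Dicer nerves it was 8.73, 6.45 and 3.16 in controls and 16.3, 14.2 and 14.1 in iKO, and in Dgcr8 nerves 4.84, 5.28 and 4.82 and 9.98, 9.35 and 11.4. After crush the summed fibrillar level went from 5432 ± 359 to 4019 ± 130.4 CPM and that of type IV from 1776 ± 308 to 694 ± 28.1 CPM. In Dgcr8 nerves the fibrillar sum went from 7447 ± 1478 to 18309.9 ± 1613 CPM, with type IV at 1889 ± 294 and 2117 ± 69.8 CPM. These sums were given no test.

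**Figure D1:**
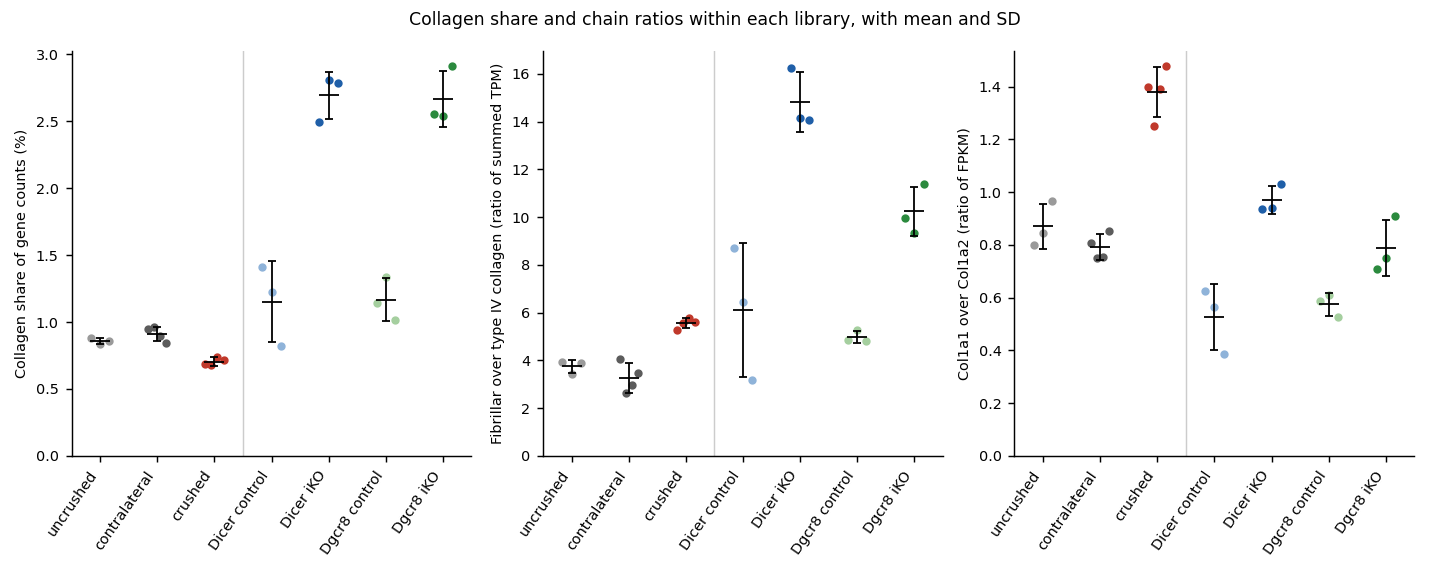
Collagen share of gene counts (%), ratio of summed fibrillar to summed type IV TPM, and ratio of Col1a1 to Col1a2 FPKM, by group. Points are libraries and bars are mean and SD (n = 3 or 4). Crushed nerves lie lowest in their experiment in the first panel and highest in the other two, and iKO nerves lie above their controls in all panels.

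The first question was how collagen genes differed between the crushed nerve at 3 dpc and its controls. Of 39 collagens tested against contralateral nerves, 6 were upregulated and 14 downregulated at an adjusted p of at most 0.05 and a change of at least 2-fold, where 14.6% of all tested genes were called higher and 13.6% lower. Against uncrushed nerves 6 of 39 rose and 17 fell (15.3% and 21.1% of all tested genes). The crushed libraries are shared by both comparisons. At the adjusted p alone, 8 collagens were higher and 22 lower than in contralateral nerves (33.5% and 32.9% of all genes), and 8 and 23 against uncrushed (33.8% and 33.4%). The median log2 fold change over the collagens tested was -0.42 against contralateral and -0.79 against uncrushed, beside -0.06 and -0.03 over all genes.

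All type IV genes tested fell after crush. In contralateral nerves Col4a1 stood at 835, 1219, 1052 and 882 CPM and in crushed nerves at 402, 428, 417 and 379.95 (log2 fold change -1.28 ± 0.12 (SE), adjusted p = 2.4e-07). Its partner Col4a2 went from 620.2, 909.9, 806 and 662 to 281, 280.2, 281 and 263 CPM (-1.43 ± 0.12, adjusted p = 7.7e-08). Every crushed library lay below every control library for both chains, which together form the basal lamina network common to all tissues. The rarer chain gene Col4a5 fell from 18.9, 19.3, 18.9 and 16.5 to 6.099, 7.09, 6.601 and 6.32 CPM (-1.48 ± 0.11, adjusted p = 2.2e-08). Col4a3 and Col4a4, the chains known from kidney and lung basement membranes, also fell (-1.77 ± 0.31 and -1.17 ± 0.17). Col4a6, tested only against uncrushed nerves, was lower there too (-1.66 ± 0.44, adjusted p = 0.0057). These genes were weakly expressed. Mean levels were 2.26 and 0.643 CPM for Col4a3 and 7.72 and 3.4 for Col4a4 in contralateral and crushed nerves. For Col4a6 they were 1.45 and 0.411 CPM in uncrushed and crushed nerves. Crushed libraries held 11, 7, 5 and 7 counts of Col4a3 and 8, 2, 4 and 5 of Col4a6. Against uncrushed nerves the log2 fold change was -1.04 ± 0.10 for Col4a1 and -1.15 ± 0.09 for Col4a2, and without uncrushed replicate 1 that of Col4a1 was under 2-fold. Without the count filter Col4a1, Col4a2 and Col4a4 were all under 2-fold against uncrushed nerves. The summed level of 6 perineurial markers was 391.9 to 487 CPM in contralateral and 153 to 167 in crushed nerves, with 1 of 5 tested called lower (Itgb4) and 0 higher, and that of SC markers fell as given above. The sum of 8 endothelial markers was 163 to 191 CPM in contralateral and 209 to 249 in crushed nerves, with 3 of 8 called higher and 0 lower. For 8 pericyte and smooth muscle markers it was 235 to 260 and 210 to 244 CPM, with 0 of 7 tested called higher and 1 lower. Of all genes 14.6% were called higher and 13.6% lower. The part of these shifts in the type IV falls was not tested.

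Fibrillar genes split after crush, with 3 of 11 upregulated and 4 downregulated. Col5a2, which encodes a chain that starts and thins type I fibrils, was at 219, 214, 201 and 188 CPM in contralateral and 507, 536, 526 and 464 in crushed nerves (log2 fold change 1.32 ± 0.08 (SE), adjusted p = 3.1e-09). Col11a1, of the same minor fibrillar group, rose from 75.2 ± 16.4 to 159.5 ± 12.7 CPM (1.09 ± 0.13, adjusted p = 4.8e-06), and without contralateral replicate 3 its change was under 2-fold. Col2a1, the cartilage collagen, went from 10.1, 7.38, 14.1 and 8.31 to 27.8, 37.1, 40.8 and 42.04 CPM (1.91 ± 0.18, adjusted p = 2.5e-07). In the other direction, Col1a2 fell from 1528, 1569, 1427 and 1297 to 660.00, 689, 672 and 617 CPM (-1.13 ± 0.09, adjusted p = 5.1e-08), and its call was lost without the count filter and, against uncrushed nerves, without uncrushed replicate 1. Col5a3 (-1.41 ± 0.17) and the weakly expressed Col11a2 (-1.98 ± 0.40) fell as well. The deepest fall among them was that of Col24a1, a minor fibrillar gene, which stood at 44.9, 57.1, 62.4 and 49.8 CPM in contralateral nerves and 2.57, 2.199, 2.2 and 3.96 in crushed nerves (-4.28 ± 0.18, adjusted p = 4e-11).

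The most abundant fibrillar genes moved little by comparison. Col1a1 was at 1662, 1595, 1472 and 1475 CPM in contralateral and 1168, 1074, 1218 and 1109.8 in crushed nerves (-0.42 ± 0.09, adjusted p = 0.00069), and Col3a1 at 1727, 1324, 1315 and 1415 and 992, 1149.9, 1179.98 and 1154 (-0.35 ± 0.10, adjusted p = 0.0077). Both passed the adjusted p with changes under 2-fold, and the groups did not overlap. The chains of type I changed unequally, and the ratio of Col1a1 to Col1a2 FPKM was 0.809, 0.749, 0.754 and 0.853 in contralateral, 0.799, 0.845 and 0.967 in uncrushed and 1.4, 1.25, 1.39 and 1.48 in crushed nerves.

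Chains that assemble into the same or kindred molecules also parted in types V, VI and VIII. The FPKM ratio of Col5a2 to Col5a1 was 0.8503 ± 0.0675 in contralateral (SD, n = 4) and 2.65 ± 0.212 in crushed nerves (n = 4). Type VI collagen takes a chain from each of Col6a1, Col6a2 and Col6a3. Col6a3 rose from 185, 129.7, 119 and 151 to 311, 346, 341 and 364 CPM (1.24 ± 0.12, adjusted p = 3.9e-07). Meanwhile Col6a1 stood at 160.3 ± 19.6 and 149.6 ± 21 CPM (-0.08 ± 0.11, adjusted p = 0.52) and Col6a2 at 198 ± 20.6 and 163 ± 19.2 (-0.26 ± 0.10, adjusted p = 0.032). The ratio of Col6a3 to Col6a1 FPKM was 0.459 ± 0.0327 before and 1.36 ± 0.1795 after crush. The short-chain genes Col8a1 and Col8a2, of the type VIII collagen known from vessel walls and the cornea, went in opposite directions. Col8a1 climbed from 34.3, 20.4, 23.98 and 23.3 to 152, 232, 207 and 236 CPM (3.04 ± 0.16, adjusted p = 7.9e-10), the largest rise of any collagen after crush. Col8a2 dropped from 14.5, 23.95, 17.3 and 15.1 to 0.802, 0.407, 0.275 and 0.377 CPM (-5.18 ± 0.28, adjusted p = 8.9e-10), the largest fall, with 3 to 10 counts left in a crushed library. Col4a1 and Col4a2, in contrast, held an FPKM ratio of 0.813 ± 0.0185 in contralateral and 0.843 ± 0.0437 in crushed nerves.

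Among the remaining classes, falls prevailed after crush. Col23a1, a transmembrane collagen, was at 228, 326, 286 and 231 CPM in contralateral and 21.6, 12.6, 15.7 and 13.7 in crushed nerves (log2 fold change -4.06 ± 0.18 (SE), adjusted p = 7.8e-11). Col9a2, a chain of the FACIT type IX of cartilage, fell from 15.4 ± 0.416 to 0.913 ± 0.187 CPM (-4.05 ± 0.16, adjusted p = 2.7e-11) with Col9a3 (-1.85 ± 0.30). Col14a1, a FACIT that binds fibrils in mature connective tissue, went from 238, 271, 239 and 200.3 to 75.4, 79.8, 79.5 and 76.4 CPM (-1.60 ± 0.10, adjusted p = 2.8e-09). Col12a1 and Col16a1 did not pass the test (-0.41 ± 0.18 and 0.22 ± 0.10), and neither did the anchoring fibril gene Col7a1 at the fold set (-0.64 ± 0.21). The multiplexins diverged. Col18a1, whose C-terminal fragment is endostatin, rose from 106, 114, 96.7 and 99.99 to 289, 348, 328 and 286 CPM (1.60 ± 0.09, adjusted p = 8.2e-10), and Col15a1 was at 526, 431, 451 and 527 and 247, 315, 334 and 303 (-0.67 ± 0.10, adjusted p = 2.7e-05). Col28a1, a collagen reported mainly in peripheral nerve, was at 88.1, 90.4, 94.3 and 71.2 and 124, 138, 144 and 141 CPM (0.68 ± 0.10, adjusted p = 1.9e-05), under 2-fold, and Col26a1 at 37.1 ± 3.88 and 20.2 ± 4.53 (-0.87 ± 0.14, adjusted p = 0.0001). Col22a1 (-1.04 ± 0.32) and Col6a6 (-1.38 ± 0.30) were called lower against uncrushed nerves alone, the former not without crushed replicate 3 or uncrushed replicate 2.

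**Figure D2:**
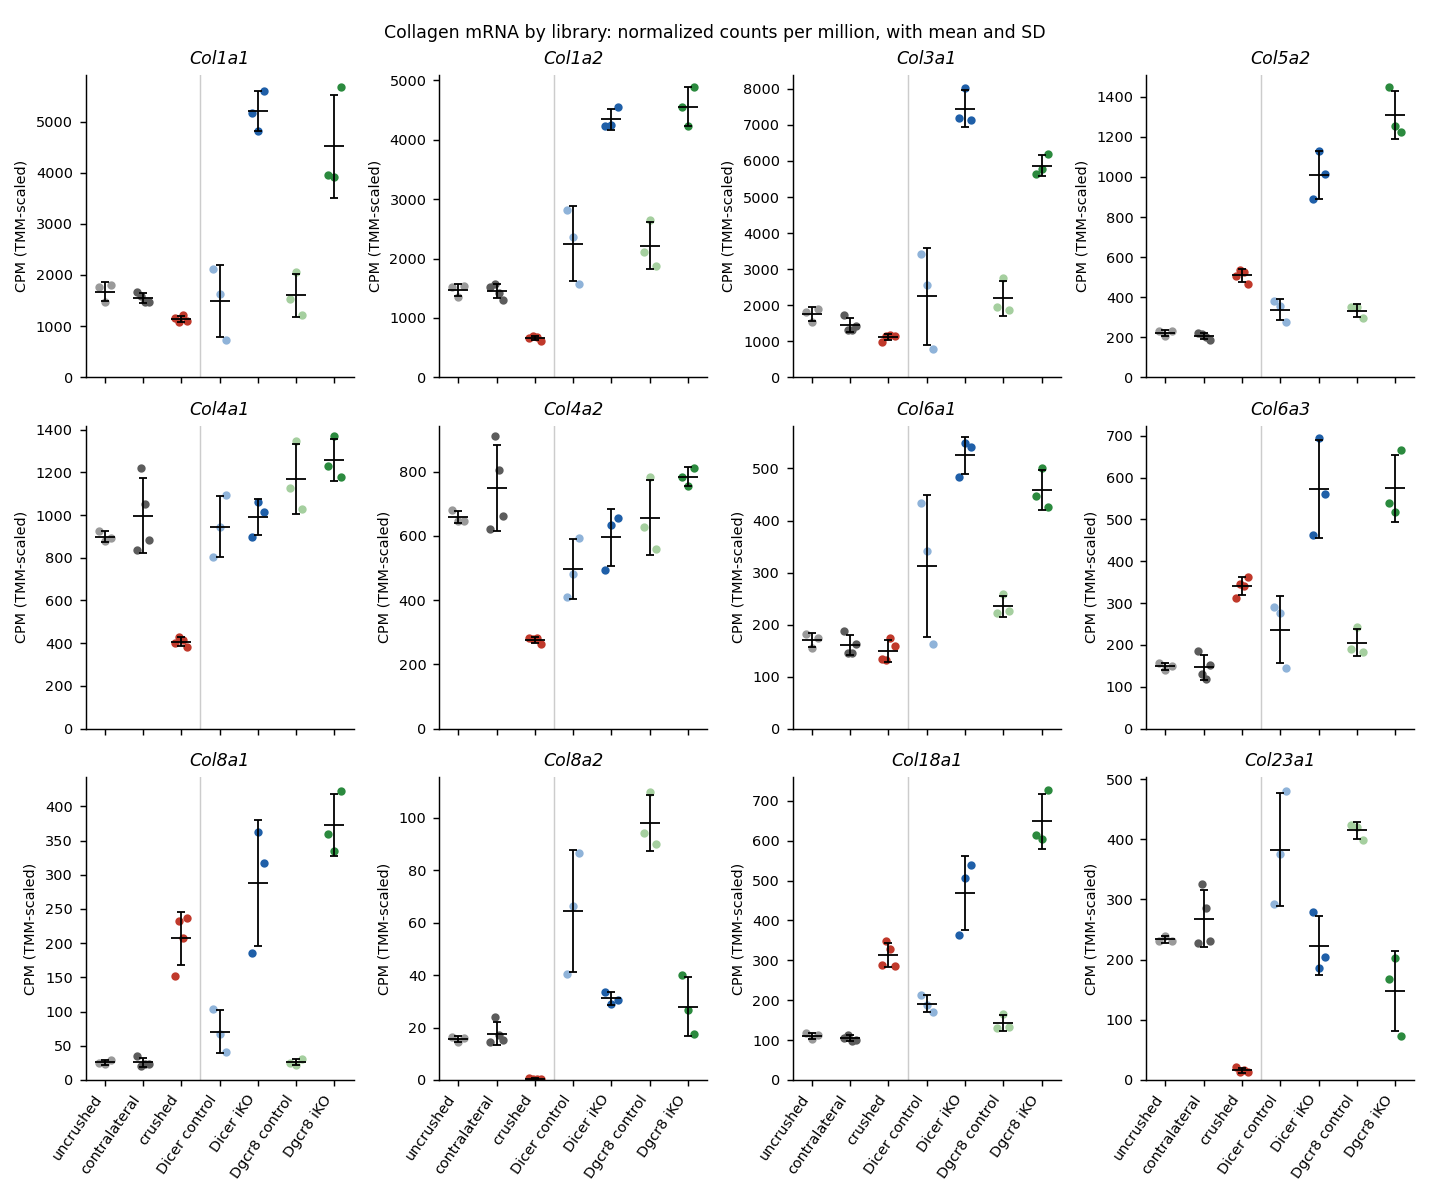
Normalized level (CPM) of 12 collagen genes in each of 23 libraries, with mean and SD (n = 3 or 4 per group; y axes start at 0 and differ between panels). Col4a1 and Col4a2 are lower in crushed nerves and near their controls in iKO nerves, Col1a1 and Col3a1 are higher in iKO nerves, and Col8a1 and Col8a2 part in all 3 conditions.

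The contralateral nerve served to ask whether an injury on the other side changed collagens. No collagen of 42 tested was called against uncrushed nerves by edgeR (0.0% of all genes higher and 0.0% lower) or by DESeq2, and 3 had an unadjusted p under 0.05. Their log2 fold changes ran from -0.89 to 0.24. Col3a1 stood at 1806, 1536 and 1899.8 CPM in uncrushed and 1727, 1324, 1315 and 1415 in contralateral nerves (-0.28 ± 0.13, adjusted p = 0.28).

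The second question was which collagens changed when SCs of the adult nerve lost miRNA processing. In the Dgcr8 iKO, 20 of 39 collagens tested were upregulated and 3 downregulated, where 13.4% of all genes were called higher and 6.99% lower. In the Dicer iKO, 12 of 36 were upregulated and 2 downregulated, beside 7.37% and 1.64% of all genes. At the adjusted p alone the Dgcr8 counts were 25 and 3 (23.9% and 20.6% of all genes) and the Dicer counts 14 and 3 (12.3% and 8.88%). The median collagen log2 fold change was 1.10 in Dgcr8 and 0.68 in Dicer nerves, beside -0.01 and -0.01 over all genes. Leaving out single libraries gave 17 to 20 higher calls in the Dgcr8 line and 7 to 16 in the Dicer line, with 7 without Dicer iKO replicate 3 and 13 without Dicer control replicate 3. The 2 Dicer falls dropped to 0 without Dicer control replicate 2 or Dicer iKO replicate 2 or 3, and to 1 without Dicer iKO replicate 1.

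Fibrillar collagens made up the largest group of rises, with 9 of 11 in the Dgcr8 and 6 of 11 in the Dicer iKO and class medians of 1.42 and 1.38. Col1a1 was at 1528, 2052 and 1221 CPM in Dgcr8 controls and 3949, 3921 and 5672 in Dgcr8 iKO (log2 fold change 1.496 ± 0.25 (SE), adjusted p = 0.00063). In the Dicer line it stood at 2118, 1619 and 738 and 5168, 4822 and 5601 CPM (1.80 ± 0.35, adjusted p = 0.013). The lowest iKO library lay above the highest control in both lines, and Dicer control replicate 3 was far below the other controls. Without that library the Dicer change was 1.48 ± 0.18, adjusted p = 0.0022. Col3a1 went from 1949, 2757 and 1865 to 5644, 5773 and 6188 CPM (1.42 ± 0.22, adjusted p = 0.00037), and in the Dicer line from 3422, 2552 and 773 to 7186, 8035 and 7138 (1.73 ± 0.47, adjusted p = 0.037). Without Dicer control replicate 3 the Col3a1 change in the Dicer line was 1.32 ± 0.19, adjusted p = 0.0038. Adjusted p for Col3a1 reached 0.11 with a single library left out, and its call was lost without Dicer control replicate 2 or any of the 3 Dicer iKO replicates. The Col1a1 call was lost without Dicer control replicate 2 or Dicer iKO replicate 2 or 3. Col1a2 rose from 2118, 2656 and 1881 to 4550.1, 4238 and 4886 CPM in Dgcr8 nerves (1.04 ± 0.20, adjusted p = 0.0018) and was just under 2-fold without Dgcr8 control replicate 3 or Dgcr8 iKO replicate 3. In Dicer nerves it was at 2252 ± 637 and 4343 ± 176 CPM (0.95 ± 0.23, adjusted p = 0.024), and the change was 0.74 ± 0.16, adjusted p = 0.015 without control replicate 3. The FPKM ratio of Col1a1 to Col1a2 was 0.588, 0.608 and 0.527 in Dgcr8 controls, 0.7101, 0.749 and 0.909 in Dgcr8 iKO, 0.627, 0.566 and 0.388 in Dicer controls and 0.938, 0.941 and 1.03 in Dicer iKO.

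The minor fibrillar genes rose with them. Col5a1 and Col5a2, whose chains build type V collagen, gave log2 fold changes of 1.46 ± 0.18 and 1.97 ± 0.17 in Dgcr8 nerves and 1.38 ± 0.14 and 1.58 ± 0.16 in Dicer nerves, and the third type V gene, Col5a3, was not called in either line (0.08 ± 0.18 and 0.20 ± 0.15). Col27a1 rose 4.36-fold in Dgcr8 nerves, from 27.3, 26.8 and 21.97 to 128, 127 and 76.3 CPM, and 2.63-fold in Dicer nerves. Col2a1 went from 32.3, 19.7 and 27.7 to 39.4, 67.04 and 98.7 CPM (1.35 ± 0.29, adjusted p = 0.0028), a call lost without Dgcr8 iKO replicate 3, and gave 1.45 ± 0.36, adjusted p = 0.027 in Dicer nerves, where it was lost without Dicer control replicate 2 or Dicer iKO replicate 2 or 3. Without Dicer control replicate 3 the Col2a1 change was 1.09 ± 0.15, adjusted p = 0.0033. Col11a1 (1.69 ± 0.17, adjusted p = 2.7e-05) and Col11a2 (1.12 ± 0.27, adjusted p = 0.0062) were upregulated in the Dgcr8 iKO, the latter not without Dgcr8 control replicate 1 or Dgcr8 iKO replicate 2. In the Dicer line Col11a1 was at 62.6, 91.4 and 82.6 CPM in controls and 136, 152 and 159 in iKO. The groups did not overlap, but it was not called. Without Dicer control replicate 3 the Col11a1 change was 0.95 ± 0.16, adjusted p = 0.007, under 2-fold. The exception in the class was again Col24a1. It fell from 103, 115 and 119 to 42.5, 40.2 and 19.6 CPM (-1.72 ± 0.23, adjusted p = 0.00017) and, in the Dicer line, from 59.04, 81.1 and 169 to 42.1, 32.8 and 28.2 (-1.58 ± 0.37, adjusted p = 0.024). Among Dicer controls replicate 3 had the highest Col24a1, and without it the change was -1.03 ± 0.19, adjusted p = 0.01. The Dicer call was lost without Dicer control replicate 2 or Dicer iKO replicate 2 or 3.

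No type IV gene of 6 was called in either iKO line by edgeR or by DESeq2, and unadjusted p fell under 0.05 for 1 in the Dgcr8 and 0 in the Dicer line. Col4a1 was at 1129, 1349 and 1029.6 CPM in Dgcr8 controls and 1230.2, 1368 and 1176 in Dgcr8 iKO (0.11 ± 0.17, adjusted p = 0.65), with overlapping groups. In Dicer nerves it stood at 803, 943 and 1092 and 897, 1061 and 1016 CPM (0.07 ± 0.15, adjusted p = 0.77). Col4a2 gave 0.25 ± 0.17, adjusted p = 0.24 in Dgcr8 and 0.27 ± 0.17, adjusted p = 0.31 in Dicer nerves. With all libraries Col4a5 alone of the 6 type IV genes passed the adjusted p, in Dgcr8 nerves and under 2-fold (0.45 ± 0.16, adjusted p = 0.036). Without Dicer control replicate 3, however, Col4a3 was called lower in the Dicer line (-1.26 ± 0.21, adjusted p = 0.0064, against -0.81 ± 0.53, adjusted p = 0.31 with it). Col4a4 then passed the adjusted p under 2-fold (-0.96 ± 0.24, adjusted p = 0.027, against -0.62 ± 0.39, adjusted p = 0.29).

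Several collagens of other classes changed by more than 4-fold in Dgcr8 nerves. Col8a1 was at 25.4, 21.2 and 29.95 CPM in Dgcr8 controls and 359, 335 and 423 in Dgcr8 iKO (log2 fold change 3.86 ± 0.18 (SE), adjusted p = 2.9e-07), a 14.5-fold difference. In Dicer nerves it went from 104, 67.8 and 40.3 to 186, 362 and 317 CPM (2.03 ± 0.37, adjusted p = 0.01), a call lost without Dicer control replicate 2 or Dicer iKO replicate 3. Without Dicer control replicate 3 the Col8a1 change was 1.75 ± 0.30, adjusted p = 0.0067. Col8a2 fell from 94.1, 110.1 and 89.9 to 39.99, 26.5 and 17.5 CPM in the Dgcr8 line (-1.81 ± 0.24, adjusted p = 0.00013). Its Dicer values were 40.4, 66.4 and 86.6 and 33.7, 29.2 and 30.5 CPM (-1.05 ± 0.25, adjusted p = 0.025), and leaving out any Dicer library but control replicate 1 ended that call, with -0.78 ± 0.20, adjusted p = 0.03 without control replicate 3. Col28a1 rose from 96.6, 74.1 and 80.9 to 519, 546 and 594 CPM (2.72 ± 0.16, adjusted p = 1e-06) and from 84.6, 115 and 126 to 319.9, 458 and 437 (1.90 ± 0.20, adjusted p = 0.0021), with iKO libraries above all controls in both lines. Col18a1 went from 131, 165 and 133 to 614, 605 and 728 CPM (2.18 ± 0.16, adjusted p = 3.9e-06) and from 213, 189 and 170.1 to 363, 505 and 538 (1.30 ± 0.17, adjusted p = 0.0038). Its class partner Col15a1 was called in neither line (0.15 ± 0.17 and 0.40 ± 0.33).

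The FACIT Col16a1 and Col26a1 were upregulated in both lines. Col16a1 rose 3.68-fold in Dgcr8 nerves, from 143, 118 and 88.1 to 506, 348 and 432 CPM, and 2.48-fold in Dicer nerves, from 105, 98.9 and 126 to 264, 266 and 287. Col26a1 gave 1.49 ± 0.17, adjusted p = 6.4e-05 in Dgcr8 and 1.44 ± 0.20, adjusted p = 0.0046 in Dicer nerves. Of type VI, Col6a3 was called in both (1.48 ± 0.17, adjusted p = 5.2e-05 for Dgcr8, and 1.28 ± 0.28, adjusted p = 0.018 for Dicer), and the Dicer call was lost without Dicer control replicate 2 or Dicer iKO replicate 2 or 3. Without Dicer control replicate 3 the Col6a3 change was 1.02 ± 0.17, adjusted p = 0.007. Col6a1 was at 223, 258 and 225 and 448, 502 and 427 CPM in Dgcr8 nerves (0.96 ± 0.14, adjusted p = 0.00026) and Col6a2 at 189, 216 and 169 and 236, 301 and 318 (0.58 ± 0.15, adjusted p = 0.011), both under 2-fold. The FPKM ratio of Col6a3 to Col6a1 was 0.494 ± 0.0994 in Dgcr8 controls and 0.901 ± 0.241 in Dgcr8 iKO (SD, n = 3 each). Of the transmembrane genes, Col23a1 fell from 424, 421 and 399 to 167, 202 and 73.1 CPM (-1.49 ± 0.29, adjusted p = 0.0016) and was at 293, 376 and 479.9 and 278, 186 and 205 CPM in Dicer nerves (-0.78 ± 0.22, adjusted p = 0.04). Some rises in Dgcr8 nerves were of barely expressed genes. Col6a5 went from 0.118, 1.22 and 0.207 to 4.01, 4.86 and 2.1 CPM (2.90 ± 0.63, adjusted p = 0.0031) and Col9a1 from 0.472, 1.22 and 0.207 to 3.54, 3.62 and 5.599 (2.79 ± 0.50, adjusted p = 0.001). Col17a1 and Col25a1 also stayed under 4 CPM and lost their calls without single libraries. Col7a1 was at 7.201, 6.67 and 6.01 and 19.8, 14.3 and 10.96 CPM (1.18 ± 0.24, adjusted p = 0.002), a call lost without Dgcr8 iKO replicate 1. Col12a1 and Col14a1 were not called in either line. Col9a1, not tested in the Dicer line with all libraries, was called higher there without Dicer control replicate 3 (2.17 ± 0.65, adjusted p = 0.048).

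**Figure D3:**
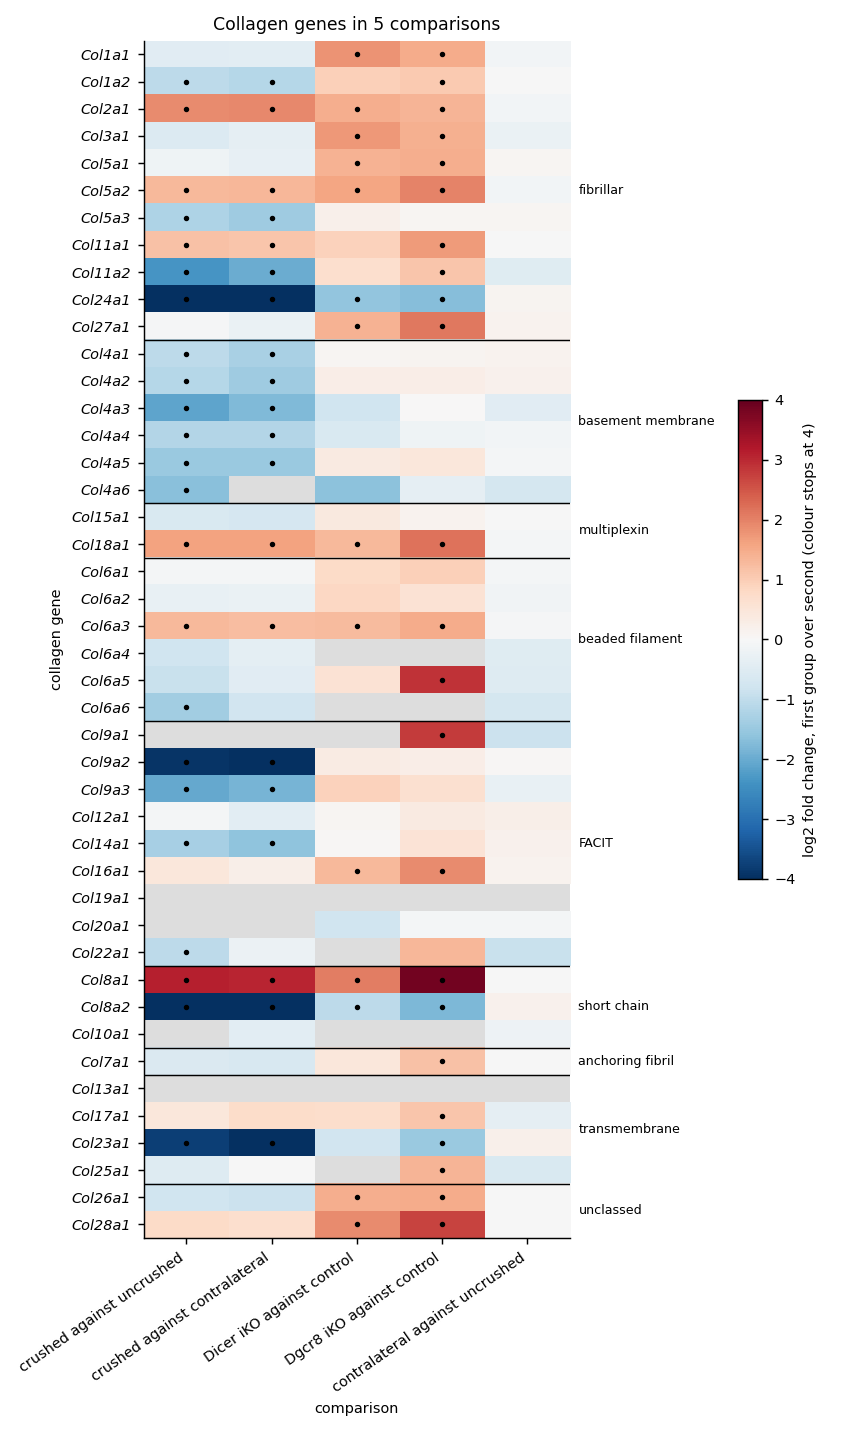
Log2 fold changes of the 44 collagen genes in 5 comparisons, grouped by class (red, higher in the first group of the comparison; blue, lower; grey, not tested; a dot marks an adjusted p of at most 0.05 and at least 2-fold). Colour stops at a log2 fold change of 4. The type IV block is blue in both crush columns, except for Col4a6, which is grey against contralateral nerves. It holds no dot in the iKO columns, and the fibrillar block is mostly red there.

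To ask whether an iKO acted on a gene as crush did, the effect in each line was set against that of crush (crushed over contralateral) in a single fit. The Dgcr8 effect was higher than the crush effect for 32 of 42 collagens at an adjusted p of at most 0.05 and lower for none, where 16.4% of all genes were higher and 21.0% lower. For the Dicer effect the counts were 27 higher and 1 lower (17.3% and 23.1% of all genes). Both comparisons use the same crush and contralateral libraries. Libraries of the 2 experiments were made with different kits per the labels, and from mice that differ in age and treatment, so these and the iKO itself cannot be told apart in this difference. The 5 type IV genes that differed from crush in the Dgcr8 line included Col4a1 (1.34 ± 0.18, adjusted p = 2e-05) and Col4a2 (1.64 ± 0.19, adjusted p = 2.7e-06). Col1a1 gave 1.88 ± 0.23, adjusted p = 6.1e-06 and Col3a1 1.73 ± 0.20, adjusted p = 3.7e-06 for Dgcr8, and 2.20 ± 0.31, adjusted p = 4.8e-05 and 2.06 ± 0.43, adjusted p = 0.0013 for Dicer. After Col6a4, the largest differences were those of Col9a2, 4.27 ± 0.24, adjusted p = 1.4e-09 for Dgcr8 and 4.33 ± 0.22, adjusted p = 2.2e-09 for Dicer, then Col9a1 for Dgcr8 and Col8a2 for Dicer (4.08 ± 0.46, adjusted p = 4.7e-06). Col9a2 stood at 32.2, 37.4 and 36.4 CPM in Dgcr8 controls and 40.5, 33.6 and 53.1 in Dgcr8 iKO, in contrast to its 0.913 CPM in crushed nerves. Col9a1 (3.98 ± 0.68, adjusted p = 0.00019) had means of 0.344 CPM in crushed and 0.825 in contralateral nerves. Col6a4 was at 0 in all Dicer controls and in 2 of 3 Dgcr8 controls and at most 3.43 CPM in an iKO library, so no fold is given for it.

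Across the calls themselves, 6 genes were called higher both after crush (against contralateral) and in the Dgcr8 iKO, namely Col2a1, Col5a2, Col11a1, Col6a3, Col8a1 and Col18a1, and all but Col11a1 also in the Dicer iKO. Lower in crush and Dgcr8 nerves were Col8a2, Col23a1 and Col24a1. A further 2, Col1a2 and Col11a2, were lower after crush and higher in the Dgcr8 iKO, and 11 were higher in the Dgcr8 iKO without a call after crush. Among collagens tested in both, the shared rises were 6 genes, all of the 6 crush calls and 31.6% of the 19 Dgcr8 calls, and the shared falls 3 genes, 21.4% of the 14 crush calls and all of the 3 Dgcr8 calls. Over all genes tested in both, shared rises were 1191 genes, 55.5% of the 2145 crush calls and 71.4% of the 1667 Dgcr8 calls, and shared falls 675 genes, 37.96% of the 1778 crush calls and 76.9% of the 878 Dgcr8 calls. No test was made of these shares. Of the 9 called lower after crush but not in the Dgcr8 iKO, 5 were type IV genes. For the shared risers the Dgcr8 effect did not pass the threshold against crush for Col6a3 (0.20 ± 0.20, adjusted p = 0.47), Col2a1 (-0.60 ± 0.37, adjusted p = 0.23) and Col11a1 (0.55 ± 0.23, adjusted p = 0.068), and was higher for Col5a2 (0.61 ± 0.14, adjusted p = 0.0026), Col18a1 (0.54 ± 0.15, adjusted p = 0.0086) and Col8a1 (0.78 ± 0.25, adjusted p = 0.022). The Col8a1 difference failed the threshold without Dgcr8 control replicate 2 or Dgcr8 iKO replicate 3. For Dicer it had the other sign (-1.04 ± 0.39, adjusted p = 0.043), and that call was lost in 12 of 19 alternatives. The 3 shared fallers fell less in the Dgcr8 iKO than after crush, a call kept under all 19 alternatives. The log2 differences ran from 2.99 to 3.75 for Col8a2, 2.21 to 2.83 for Col23a1 and 2.34 to 2.79 for Col24a1.

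**Figure D4:**
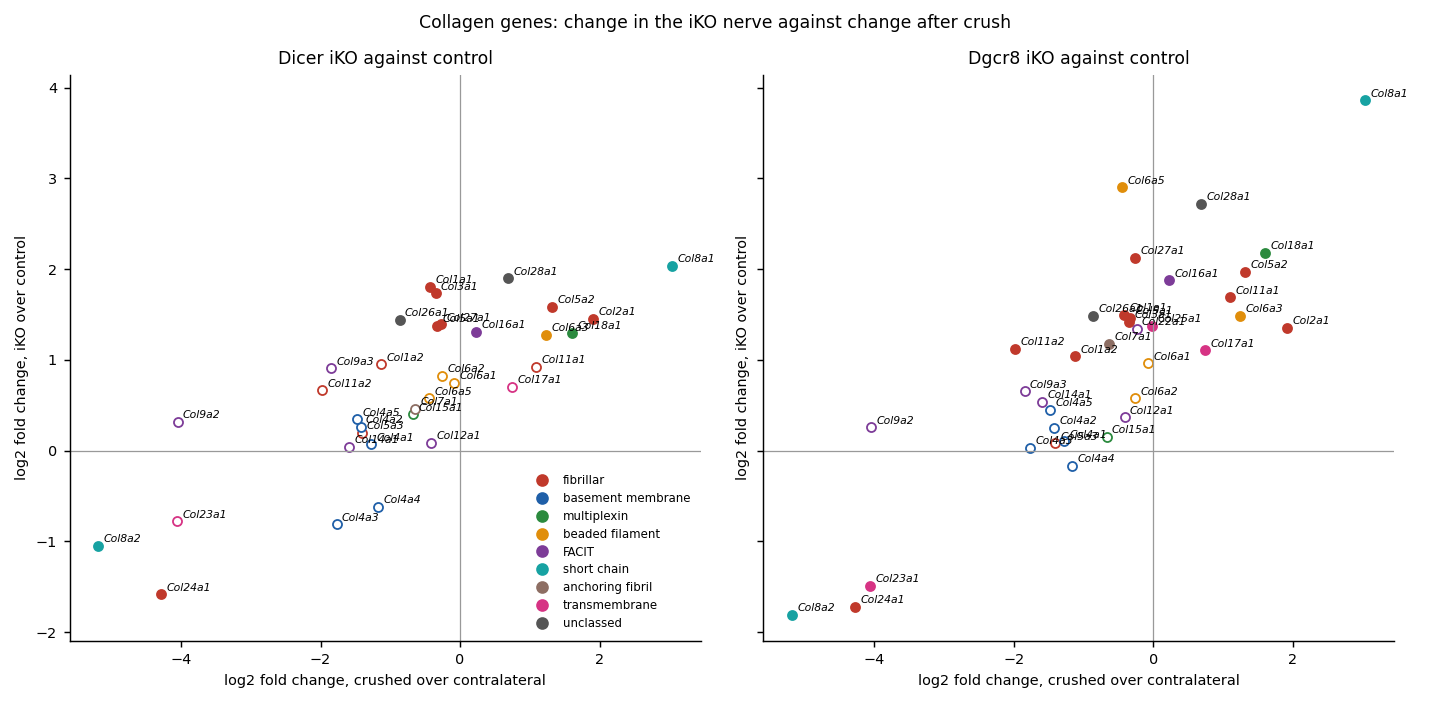
Log2 fold change of each collagen gene in the Dicer iKO (left) and Dgcr8 iKO (right), over control, against its log2 fold change in crushed over contralateral nerves. Colours give the class and filled points passed the test in the iKO; Col8a1 lies at the upper right, Col8a2 and Col24a1 at the lower left, and the type IV genes, all open, lie left of zero.

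Dgcr8 and Dicer nerves were compared with each other last. None of 40 collagens tested differed between both effects by edgeR, in either direction (0.00738% of all genes were higher and 0.00738% lower), and 6 had an unadjusted p under 0.05. DESeq2 called 2 higher in Dgcr8, Col8a1 (1.85 ± 0.42, adjusted p = 0.0044) and Col18a1 (0.90 ± 0.24, adjusted p = 0.018). By edgeR these were 1.83 ± 0.42, adjusted p = 0.14 and 0.89 ± 0.23, adjusted p = 0.16. Without Dicer control replicate 3 edgeR called them too, with 2.11 ± 0.34, adjusted p = 0.0087 and 0.96 ± 0.24, adjusted p = 0.048. For Col1a1 and Col3a1 the differences were -0.30 ± 0.45, adjusted p = 0.8 and -0.31 ± 0.53, adjusted p = 0.83.

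The rise of Col18a1 was unequal over its transcripts, a pattern noticed after the values were seen. Col18a1 (chr10:77052178-77166548, minus strand, GRCm38) has an upstream start at 77166548 and internal starts at 77113946 and 77113705. The upstream start encodes the short form of collagen XVIII, known from vascular and epithelial basement membranes, and the internal starts encode longer N-terminal forms. Of the Col18a1 counts, 46.9, 48.2, 46.5 and 46.4% fell to the upstream-start transcript in contralateral nerves and 51.7, 42.4 and 50.1% in uncrushed nerves. In crushed nerves the share was 73.96, 72.9, 76.9 and 76.6%, above every control (exact two-sided permutation test against contralateral, p = 0.0286, the smallest that 4 against 4 can give, and adjusted p = 0.125 over 5 comparisons). In Dgcr8 nerves it was 35.2, 33.3 and 12.8% in controls and 48.4, 48.8 and 50.2% in iKO. In Dicer nerves it was 38.9, 29.1 and 22.9% and 42.1, 47.7 and 49.9%. Groups did not overlap in either line, and with 3 against 3 the exact permutation p of 0.1 is the smallest possible. Scaled to the gene's CPM, the upstream transcript went from 48.95 ± 4.43 to 235 ± 21.4 CPM after crush (SD, n = 4), and the internal-start transcripts from 47.1 ± 1.62 to 55.2 ± 11.2 with overlapping groups. In Dgcr8 nerves the upstream transcript went from 39.4 ± 19.8 to 319 ± 39.8 CPM and the internal-start transcripts from 87.4 ± 18.6 to 266 ± 24.8 (n = 3). In Dicer nerves these were 58.95 ± 22.3 and 221 ± 60.3, and 109 ± 6.59 and 198 ± 27.4 CPM. The transcripts share most exons, so their counts are RSEM's estimates from the few reads that tell them apart.

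**Figure D5:**
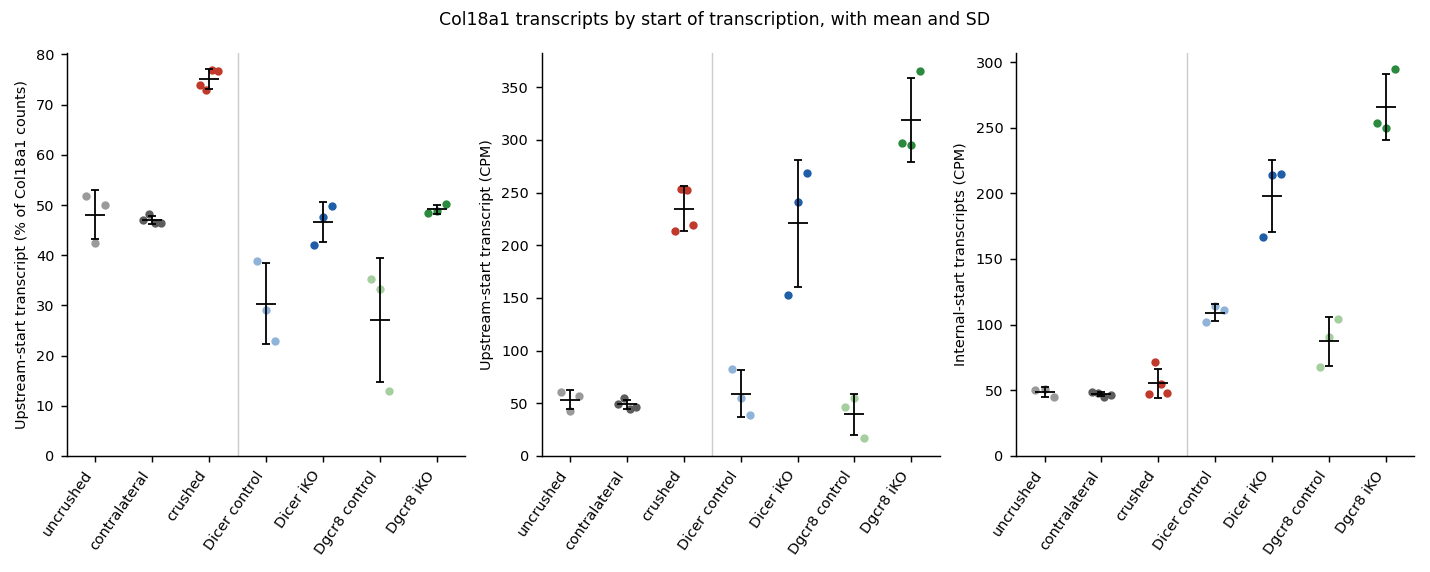
Col18a1 transcripts by start of transcription in 23 libraries: percent of the gene's counts on the upstream-start transcript, and CPM of upstream-start and internal-start transcripts, with mean and SD (n = 3 or 4). The upstream share is highest in crushed nerves and higher in iKO nerves than in their controls, and internal-start transcripts overlap between crushed and control nerves.

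Collagen chains are hydroxylated and folded in the endoplasmic reticulum, and 22 genes of this machinery were followed. After crush (against contralateral), 5 of 22 rose and 4 fell (14.6% and 13.6% of all genes), with a median log2 fold change of 0.30 beside -0.06 over all genes. P4hb, which encodes the beta subunit of prolyl 4-hydroxylase, rose from 177 ± 7.52 to 527 ± 40.03 CPM (1.59 ± 0.08, adjusted p = 2.8e-10). P3h2, a prolyl 3-hydroxylase, fell from 59.9 ± 7.22 to 16.9 ± 2.33 CPM (-1.81 ± 0.12, adjusted p = 7.3e-09). P4ha3 and Colgalt2 fell as well (-1.54 ± 0.29, adjusted p = 0.00028, and -1.48 ± 0.20, adjusted p = 1.6e-05). In Dgcr8 nerves 5 of 22 rose and 0 fell (13.4% and 6.99% of all genes), led by the chaperone gene Fkbp10 (1.61 ± 0.14, adjusted p = 1.1e-05). Serpinh1, the collagen chaperone HSP47, rose from 308 ± 21.2 to 706 ± 78.03 CPM (1.19 ± 0.15, adjusted p = 0.00012), and the lysyl hydroxylase genes Plod2 and Plod1 gave 1.13 ± 0.15, adjusted p = 0.00012, and 1.09 ± 0.13, adjusted p = 6.3e-05. In Dicer nerves none of 22 was called by edgeR and 0 by DESeq2, 10 had an unadjusted p under 0.05, 6 passed the adjusted p under 2-fold, and the median was 0.34.

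Secreted chains are trimmed and crosslinked outside the cell. Of 18 genes for these steps, 8 of 16 rose and 3 fell after crush, 10 of 16 rose and 2 fell in Dgcr8 nerves and 4 of 15 rose and 0 fell in Dicer nerves. Of all genes 14.6% rose and 13.6% fell after crush, 13.4% and 6.99% in Dgcr8 nerves, and 7.37% and 1.64% in Dicer nerves. Lox, the lysyl oxidase that starts crosslinking, fell after crush from 492 ± 73.6 to 28.9 ± 10.3 CPM (-4.07 ± 0.21, adjusted p = 3.8e-10), and in Dgcr8 nerves from 567 ± 107 to 281 ± 21.7 CPM (-1.01 ± 0.17, adjusted p = 0.00059). Its relatives Loxl1 and Loxl4 went the other way. Loxl1 rose from 4.89 ± 0.811 to 31.2 ± 3.96 CPM in Dgcr8 nerves (2.66 ± 0.18, adjusted p = 2.8e-06) and was called in Dicer nerves (1.80 ± 0.21, adjusted p = 0.0027) and after crush (2.05 ± 0.20, adjusted p = 3.5e-07). Loxl4 gave 2.07 ± 0.27, adjusted p = 1e-05 after crush and 2.43 ± 0.35, adjusted p = 0.00023 in Dgcr8 nerves. Adamts2, which removes the N-propeptide of fibrillar chains, rose in Dgcr8 (2.31 ± 0.15, adjusted p = 1.9e-06) and Dicer nerves (1.45 ± 0.37, adjusted p = 0.03) and was not called after crush (0.40 ± 0.12). Pxdn, the peroxidasin that crosslinks type IV collagen, rose after crush (2.15 ± 0.12, adjusted p = 1e-09). Pcolce2, an enhancer of C-propeptide removal, rose after crush (3.33 ± 0.14, adjusted p = 7.3e-11) and in Dgcr8 nerves (2.66 ± 0.55, adjusted p = 0.0024). Lum and Loxl2 completed the Dicer calls (1.34 ± 0.33, adjusted p = 0.028, and 1.15 ± 0.26, adjusted p = 0.022).

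Among 16 genes of collagen receptors and breakdown, 3 of 14 rose and 0 fell after crush, 10 of 15 rose and 1 fell in Dgcr8 and 6 of 14 rose and 1 fell in Dicer nerves. The rises compare with 14.6%, 13.4% and 7.37% of all genes, and the falls with 13.6%, 6.99% and 1.64%. Mmp14, a membrane collagenase, rose in all 3: 2.47 ± 0.10, adjusted p = 2.6e-11 after crush, 2.46 ± 0.14, adjusted p = 1e-06 in Dgcr8 and 1.10 ± 0.29, adjusted p = 0.033 in Dicer nerves. Lair1, an inhibitory collagen receptor of leukocytes, gave 2.58 ± 0.21, adjusted p = 6.1e-08 after crush, 3.08 ± 0.28, adjusted p = 1.3e-05 in Dgcr8 and 2.37 ± 0.44, adjusted p = 0.011 in Dicer nerves. Mmp9, a gelatinase that cleaves type IV collagen, rose after crush from 0.7599 ± 0.315 to 17.1 ± 4.703 CPM (4.47 ± 0.29, adjusted p = 5e-09), and it fell in Dicer (-2.71 ± 0.58, adjusted p = 0.017) and Dgcr8 nerves (-1.19 ± 0.35, adjusted p = 0.016). Ctsk, the collagen-degrading cathepsin, was upregulated in both lines (1.76 ± 0.21, adjusted p = 7.2e-05, and 1.32 ± 0.33, adjusted p = 0.029). Mmp8 rose in Dgcr8 nerves from 0.175 ± 0.21 to 3.81 ± 1.102 CPM, and the integrin gene Itga10 in Dicer nerves from 2.101 ± 0.228 to 8.496 ± 2.45 CPM. The summed macrophage markers rose in all 3 conditions as given above, as did Lair1, whereas Mmp9 rose after crush and fell in both iKO lines. The part of macrophages in the Lair1 and Mmp9 changes was not tested.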

How the data were processed

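Long RNA of whole sciatic nerve was measured by RNA-seq. The authors trimmed reads with Trimmomatic, aligned them with STAR to GRCm38 and quantified Ensembl transcripts with RSEM. The deposited files hold, per transcript and library, estimated counts, which the authors left unnormalized, and TPM and FPKM values that the authors' RSEM run scaled for length and depth. Per the labels, iKO libraries were made with the Illumina TruSeq stranded kit after Ribo-Zero depletion and crush libraries with a Clontech pico-input kit, whereas the methods name a single protocol.

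Estimated counts were summed per gene and rounded. Genes were filtered with filterByExpr (minimum count 10), scaled by TMM and tested with edgeR's quasi-likelihood test (edgeR 4.0.16, R 4.3.3) on the groups compared, over all genes, with Benjamini-Hochberg adjusted p. A call needs an adjusted p of at most 0.05 and, within an experiment, at least 2-fold. SE is the absolute log2 fold change over the square root of F. TPM, FPKM and ratios compare genes within a library only, because a short transcript took most TPM in crushed nerves. Reads of close paralogs may be split by RSEM. The fits were tested on simulated data. Alternatives were DESeq2 1.42.0, RLE scaling, no filter, protein-coding genes only, all groups, a replicate block and leaving out each library. Deviations of same-numbered libraries in 2 groups had correlations of -0.15 to 0.16. For crushed and contralateral nerves the mean was 0.05 over 4 pairs, beside -0.02 for other numbers. So few pairs, with no known pair among them, cannot settle whether the numbers pair mice. Chi-square per degree of freedom of 3.86 to 40.3 over 27 replicate pairs left no copies. Library totals of 5594838 to 12805921 counts limit genes under about 1 CPM to a few counts. P-values measure the spread between these libraries only. An uncrushed library is numbered 3 in its title and 4 in its description.

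Members, classes, lists and rules were chosen with earlier results of these data known. Named in full are the up to 3 most abundant genes per class (at least 1 TPM) and the up to 3 highest and lowest calls per comparison; of the gene lists, the up to 4 largest calls each, and genes outside the rule were named after their values were seen. A further SC marker is not reported here. Promoters come from RefSeq.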

Additional observations from a re-analysis of the deposited data

Results flagged for a closer look

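In 60 checks of a crushed or contralateral group of 4 libraries, 3 had a library that stood apart by Dixon's test, and chance gives about 1 in 20. Crushed replicate 1 had the lowest Col3a1 of its group at 992 CPM, crushed replicate 4 the lowest Col4a2 at 263 CPM, and contralateral replicate 4 the lowest Col4a5 at 16.5 CPM.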

How the results depend on the processing

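Collagen counts after crush and in the Dgcr8 iKO stayed within 1.5-fold of those reported under every alternative run. In the Dicer line the 2 collagens called lower became 0 with the replicate block, and the higher calls 8, and with libraries left out the lower calls ranged from 0 to 2 and the higher from 7 to 16. The replicate block gave 18 higher and 3 lower in the Dgcr8 line and 6 higher in each crush comparison, with 14 lower against contralateral and 18 against uncrushed. Per the labels, libraries of a block share only a number. Over all genes, the Dicer line had 961 higher and 214 lower calls, against 548 and 92 with the replicate block, 515 and 57 without Dicer iKO replicate 3, and 375 lower without Dicer iKO replicate 1. For contralateral against uncrushed the 0 calls became 13 higher and 128 lower without the count filter, 31 lower by DESeq2 and 95 lower without uncrushed replicate 2. For Dgcr8 against Dicer effects the 1 higher and 1 lower became 170 and 65 by DESeq2, and 320 and 81 without Dicer control replicate 3. For the Dgcr8 effect against crush, 3093 lower became 1907 without contralateral replicate 4 and 1868 without crushed replicate 3. The Dgcr8 effect against the Dicer effect gave 2 higher calls by DESeq2 and 0 to 2 with libraries left out. The Dgcr8 effect against crush gave 0 to 1 lower calls with libraries left out. The single lower call of the Dicer effect against crush (Col8a1) became 0 with RLE scaling, 2 without the count filter, 0 with uncrushed nerves as control and 0 to 2 with libraries left out. As a share of protein-coding gene counts, collagens took 1.35% in uncrushed, 1.31% in contralateral and 1.03% in crushed nerves, in the same order of crushed against controls. From summed estimated counts, the fibrillar to type IV ratio was 5.79 in crushed, 11.97 in Dicer iKO, 3.92 in Dgcr8 control and 8.67 in Dgcr8 iKO nerves, since lengths are not divided out. Fitting all crush groups together moved the median log2 fold change of all genes against uncrushed from -0.03 to -0.20. Over all calls of single collagens in all comparisons, 2056 of the values under alternatives kept direction and call, 106 kept the direction alone and none reversed. The cause of these changes was not tested. Leaving out each library for the shares and ratios was chosen after seeing the data. Depth limits Col9a1, Col6a5, Col17a1 and Col25a1, which rest on under 6 CPM in the Dgcr8 line. It also limits Col4a3, Col4a6, Col6a6, Col9a3, Col11a2 and Col22a1, called lower after crush and under 6 CPM in every library of that experiment.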

Other observations

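Col4a3 and Col4a4, the head-to-head pair on chromosome 1, varied together among the Dicer controls, at 30.02, 24.2 and 5.405 CPM and 52, 36.1 and 16.6 CPM in replicates 1 to 3, whereas Dgcr8 controls stood at 4.13, 9.52 and 2.902 and 11.7, 19.7 and 13.6 CPM. The summed level of 6 perineurial markers in the same Dicer controls was 1732, 1315 and 811 CPM, in the same order of libraries, and its part was not tested.

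The transcript of Col2a1 that contains exon 2 (chr15:98000403-98000606, GRCm38), a coding exon of 204 bases known from the embryonic form of type II collagen, took 39.1, 27.1 and 63.4% of Col2a1 counts in Dgcr8 controls and 81.5, 81.8 and 64.9% in Dgcr8 iKO. In Dicer nerves the shares were 61.9, 33.7 and 24% and 47.8, 88.2 and 72.4%, with overlapping groups, and in crushed and contralateral nerves 90.6, 76.4, 77.5 and 73.1% and 41.9, 31.7, 87.8 and 64.05%. Uncrushed nerves stood at 65.7, 96.9 and 96.8%, so crushed nerves overlapped both controls and had a mean above contralateral and below uncrushed nerves. With 145 to 274 counts of the gene in a Dgcr8 control, the exact permutation p of 0.1 for the Dgcr8 line is the smallest that 3 against 3 can give. Col2a1 was looked at for this after its values were seen.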
